A study of Mus musculus with 8 samples.

Results

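The comparison set mature olfactory sensory neurons that lacked Mex3a against the same kind of cells from control mice, gene by gene, for ribosome footprints, for input RNA and for footprints relative to RNA. Its members were the genes with at least 20 counts in the pair of deposited columns. Of 22553 genes in the table, 11160 were measured by footprints, 14351 by RNA and 11124 by both, and the last group also had a ratio of footprints to RNA. Cells were dissociated with papain from the main olfactory epithelium of untreated mice and sorted for green fluorescent protein made from the OMP-ires-GFP allele. Control mice carried Mex3a flox/flox or flox/+ without Cre, although their genotype tag gives fl/fl only. Knockout (KO) mice carried Mex3a flox/flox with a Cre allele. The KO libraries carry a genotype tag of OMP-ires-Cre, while their description names OMP-ires-GFP, and the description was followed here. Ages and sexes were not used here. The labels list 2 footprint libraries per group, but the table holds 1 column per group and assay, so no value below has a spread between mice and no difference has a replicate check.

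All ratios are log2 of KO over control after scaling within the assay, so 1 stands for 2-fold higher in the KO column and -1 for 2-fold lower. Brackets hold 95% intervals for counting error alone, and PCR copies of a molecule, which no molecular identifier marks here, make them too narrow. A gene is called here when it was at least 2-fold apart and its interval left out equality. Where a column had no count for a gene, 3 counts stood in for it, and such folds are written "at least". The footprint columns held 3576406 counts in the control and 4100841 in the KO, and the RNA columns 31855259 and 26946592. A level of 3 footprints was worth 0.881 CPM in the control and 0.811 CPM in the KO, and 14503 and 13235 genes had a footprint.

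MEX3A binds RNA through its KH domains and carries a RING domain of the kind found in ubiquitin ligases, and its relatives bind the ends of mRNAs and lower their stability or translation. A ribosome footprint is the stretch of mRNA that a ribosome shields from nuclease, so footprints over a coding sequence follow how many ribosomes are translating that mRNA. Mature olfactory neurons each express 1 of the many odorant receptor genes, carry the odour-detecting machinery in cilia and contain OMP, the olfactory marker protein. In a bulk sample, fewer cells of a type and less RNA per cell cannot be told apart.

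Mex3a itself, on chromosome 3 from 88531946 to 88541394 in GRCm38.p6, had 387 RNA counts in the control and 38 in the KO. This was 8.51-fold lower (-3.09 [-3.61, -2.61]). Of the 9772 genes with at least 400 RNA counts, 0 had a lower RNA ratio, and of all 14351 genes 44 did. Its footprints numbered 16 in the control and 5 in the KO (-1.80 [-3.60, -0.28]), so Mex3a had few footprints in both columns. By footprint RPKM in the authors' deposited table it ranked 10524 in the control, where Omp ranked 8. The sources used here do not name the coding exons that the floxed allele removes, so some counts can come from exons that remain. In the Ngn1-GFP cells of the series, which are precursors and immature neurons and share no column with this pair, the Mex3a ratio was -3.34 by footprints and -2.25 by RNA.

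The 3 relatives of Mex3a were measured at low footprint depth. Mex3b had 22 footprints in the control and 0 in the KO, at least 7.97-fold lower, while its RNA counts of 581 and 483 gave a ratio of -0.01. Mex3c had 62 footprints in the control and 212 in the KO (1.65 [1.24, 2.09]), beside an RNA ratio of 0.32. Mex3d had 9 and 16 footprints, with an interval that held 0 (-0.55 to 2.07).

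Across all measured genes the ratios were centred at 0, with medians of 0.00 by footprints and by RNA. By footprints 795 genes (7.12%) were called higher and 953 (8.54%) lower in the KO. By RNA 632 genes (4.4%) were called higher and 558 (3.89%) lower, and by footprints relative to RNA 793 (7.13%) were called higher and 1010 (9.08%) lower. These shares are the background against which each gene group below is read. At any fold, 25.7% of genes had a footprint interval above 0 and 26% had one below 0, and for RNA intervals both shares were 27.2%.

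Footprint and RNA ratios mostly parted. Of 772 genes with called higher footprints and measured RNA, 106 also had called higher RNA, and 399 had RNA within 1.25-fold. Of 950 with called lower footprints, 54 had called lower RNA and 614 had RNA within 1.25-fold. Seen from the RNA side, 106 of the 219 genes with higher RNA and measured footprints were called higher by footprints, and 54 of 127 with lower RNA were called lower. Genes called in both assays in the same direction were 0.953% of the 11124 measured in both for higher and 0.485% for lower. As a description across genes, which are not independent replicates and share libraries and depth, Pearson's r of the 2 ratios was 0.50 over 231 receptors with at least 100 footprints and 0.16 over 7521 other genes at that depth. The RNA ratios of these receptors also spread more, with an SD of 0.67 against 0.26 for the other genes.

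**Figure D1:**
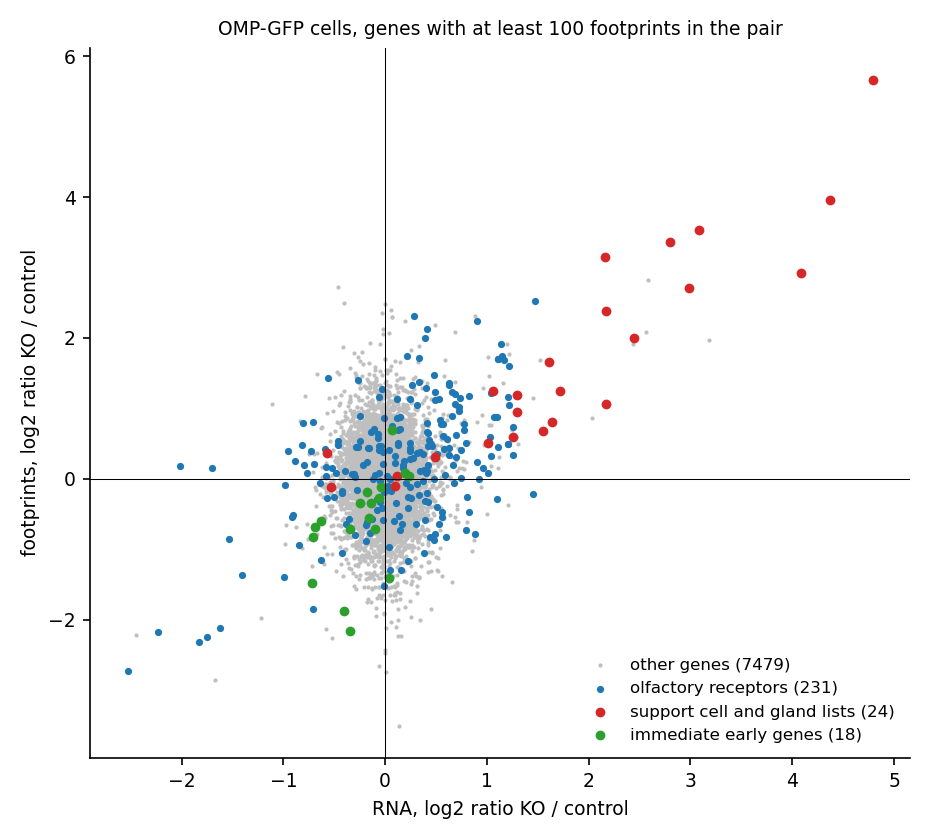
Each point is a gene with at least 100 footprints in the pair, with its RNA log2 ratio KO over control on the x axis and its footprint log2 ratio on the y axis, both without units. Grey points, the other genes, spread more along the footprint axis, support cell and gland genes (24) lie mainly at the upper right, some olfactory receptors (231) lie along the diagonal, and immediate early genes (18) lie mainly at the lower left.

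Footprint ratios scattered more at low depth, and more than counting error at every depth. Among the 2061 genes with a mean of 10 to 30 footprints per column the SD of the ratio was 1.5, where counting alone gives 0.59. Among 3075 genes with 100 to 300 it was 0.55 against 0.16, and among 138 genes above 3000 it was 0.31 against 0.029. From 300 counts up RNA ratios were narrower than footprint ratios, with an SD of 0.16 above 3000 counts. At lower depth they were not clearly so. The RNA SD was 1.43 at 10 to 30 counts, 0.94 at 30 to 100 and 0.59 at 100 to 300. For footprints these were 1.5, 0.86 and 0.55. The called genes just inside the minimum of 20 are therefore the least certain: the 65 genes with exactly 20 footprints had ratios from -4.37 to 3.05, and the 89 genes with 19, which are left out, from -4.29 to 4.05.

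The best-measured genes differed little in either direction. Of 1583 genes with at least 1000 footprints in the pair, 91.7% were within 1.5-fold by footprints and 99.7% by RNA, and 11 were called higher and 2 lower. Among these abundant genes the largest footprint ratios were those of Cyp2g1, a support cell enzyme described below, and of Atp6v1e1, a subunit of the proton pump that acidifies vesicles. Atp6v1e1 had 919 footprints in the control and 2817 in the KO (1.5 [1.39, 1.60]) with an RNA ratio of -0.16. Enkur, which encodes a cilium-associated calmodulin-binding protein, had 1939 and 4841 (1.20 [1.12, 1.28]) with an RNA ratio of -0.01.

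Further abundant genes with higher footprints and nearly level RNA were those of 2 linker histones. Hist1h1c had 1197 footprints in the control and 2884 in the KO (1.15, RNA -0.01), and Hist1h1e had 1652 and 3942 (1.13, RNA 0.10). Nfe2l2, the transcription factor of the antioxidant response, had 1175 and 2667 (1.06, RNA 0.13), and Pak3, a neuronal kinase downstream of Rac, had 538 and 1252 (1.10, RNA 0.08). At the lower end stood mt-Co1, described with the respiratory chain, and Fth1, the ferritin heavy chain that stores iron, with 1799 and 1048 footprints (-0.90 [-1.01, -0.79]) against an RNA ratio of 0.15. None of these genes showed in RNA the difference seen in footprints.

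**Figure D2:**
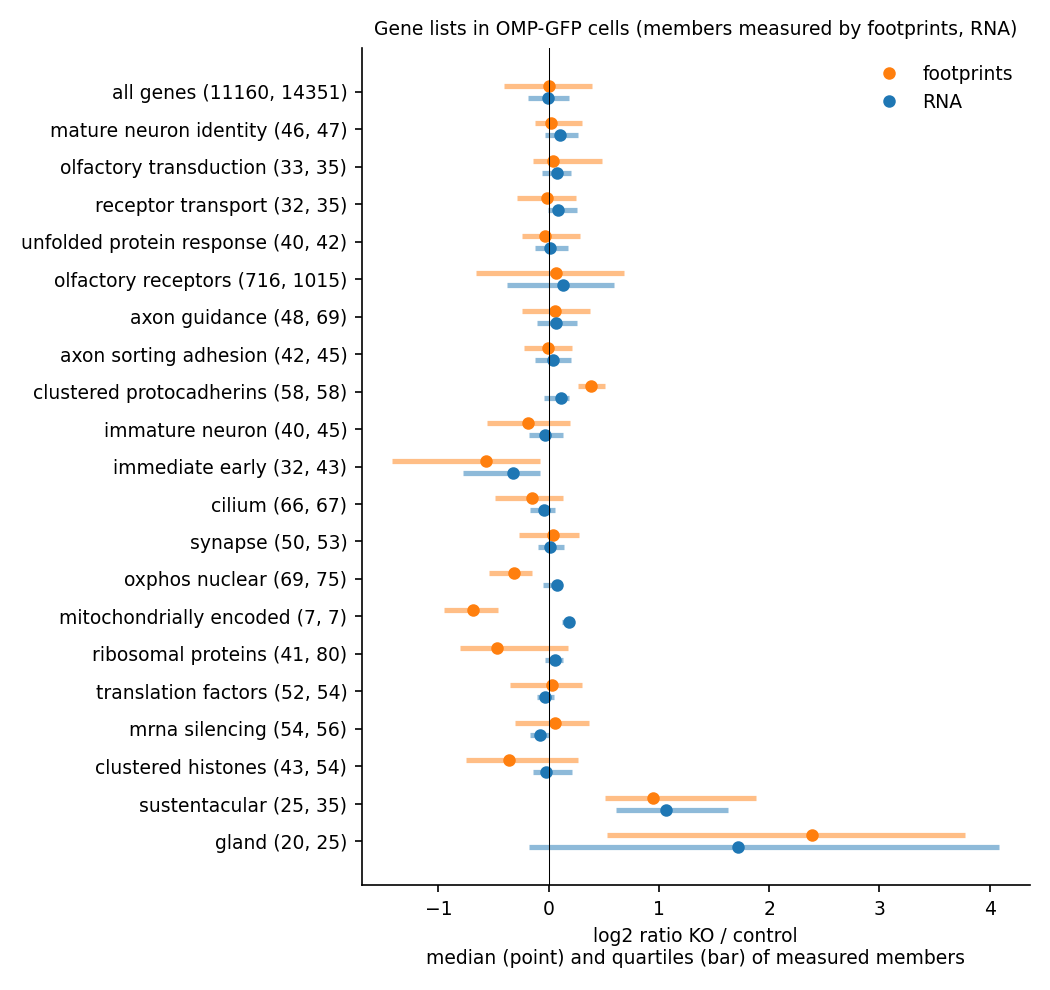
Rows are gene lists, with the numbers of members measured by footprints and by RNA in parentheses, and the x axis is the log2 ratio KO over control. Points are medians and bars run between the quartiles of the members, orange for footprints and blue for RNA. The sustentacular and gland lists lie to the right in both assays, the immediate early list to the left in both, and the respiratory chain, mitochondrially encoded and ribosomal protein lists to the left by footprints only.

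The sorted cells carried the markers of mature neurons at high levels in both columns. All 10 defining markers were well counted, from 1887 footprints for Cngb1, a subunit of the olfactory channel, to 25028 for Gnal, the olfactory G protein subunit, both in the KO. Over the whole list of mature identity genes, 25 of 46 measured members lay above 0 by footprints with a median of 0.03, and the RNA median was 0.10. Together these genes held 9.59% of all footprints in the control and 10.5% in the KO. Called members numbered 2 higher and 0 lower, namely Ugt2a1 and Ugt2a2, glucuronosyltransferases that are also on the list of support cell genes.

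Markers of other cell types in the epithelium differed between the columns. Sustentacular cells are the glia-like support cells that detoxify odorants, and 12 of 25 measured genes of their list were called higher by footprints and 1 lower, with a median of 0.94. By RNA 20 of 35 were called higher and 0 lower, with a median of 1.06. Cyp2g1, a nasal cytochrome P450, had 200 footprints in the control and 867 in the KO (2.0 [1.77, 2.23]) and 624 and 2830 RNA counts (2.44). Cyp2f2, a related enzyme, had 60 and 579 footprints (3.15). The list summed to 3244 footprints in the control and 6372 in the KO, with 5 and 8 of its 41 genes at 0.

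Secreted proteins of Bowman's and other nasal glands had the highest median of all lists. In the gland list 13 of 20 measured genes were called higher by footprints and 0 lower, with a median of 2.39, and 16 of 25 were called higher by RNA and 3 lower. Obp1a, an odorant-binding protein of nasal mucus, had 48 footprints in the control and 807 in the KO (3.95 [3.53, 4.40]) and 34 and 588 RNA counts (4.37). Bpifb9b, of a family of secreted lipid-binding proteins, had 4 and 220 footprints (5.66 [4.28, 7.55]), and Mup4, a major urinary protein that carries small volatiles, had 1 and 87 (6.32 [3.81, 11.64]). Ltf, the iron-binding protein lactoferrin, had 54 and 603 (3.36). Beside the neuronal genes these were small amounts: the list summed to 899 footprints in the control and 3393 in the KO.

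The 8 genes with the highest footprint ratios by their interval were Bpifb9b, Lcn11, Ltf, Mup4, Obp1a, Parm1, Sorcs1 and Tsku, of which 5 are gland genes. By RNA the corresponding genes were Bpifb5, Bpifb9a, Bpifb9b, Eno1b, Lcn3, Mdfic, Mup4 and Obp1a. In Ngn1-GFP cells the sustentacular median was -2.09 by footprints and -1.25 by RNA, and the gland median 0.17 and 0.09, so the support cell genes pointed the other way there. The part that support and gland cell RNA had in the called genes of the OMP-GFP pair was not tested. Removing the sustentacular, gland, vessel and immune lists from the scaling, together with the receptor, mitochondrial and ribosomal genes, gave 1751 called genes by footprints instead of 1748. The listed genes stayed among the genes that could be called, so these counts bear on the scaling factors alone.

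Markers of the remaining cell types gave mixed directions. Of the 40 immune genes 11 were measured by footprints, 3 called higher and 2 lower, and the list summed to 307 and 897 footprints, of which Ltf, also on the gland list, gave 54 and 603. Ptprc, the pan-leukocyte marker CD45, was under the minimum with 4 and 13 footprints. Csf1r was called lower with 29 and 11 (-1.52 [-2.67, -0.47], RNA -0.40), and C1qb was called higher with 4 and 16 (1.88, RNA -0.58). Basal cell and keratin genes summed to 2305 and 2027 footprints, with 1 of 8 measured called higher and 0 lower, and Trp63, the regulator of horizontal basal cells, had 0 in both columns. Microvillar and tuft cell genes summed to 7122 and 7851 footprints. Of the 8 measured, 6 lay above 0 (median 0.55), with 2 called higher and 0 lower, while the RNA median was -0.16. The called genes were Atp6v1c2, a proton pump subunit, with 8 and 29 (1.74), and Itpr3, a calcium release channel, with 10 and 29 (1.42). Ascl3, a marker of microvillar cells, was under the minimum with 14 and 0. Vessel, blood and connective tissue genes summed to 2310 and 2741 footprints, and 6 of 28 were called higher and 6 lower. Hba-a1, a haemoglobin chain, had 72 footprints in the control and 268 in the KO (1.78), beside an RNA ratio of 1.22.

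Odour signal transduction starts when a receptor activates the G protein subunit encoded by Gnal, which activates adenylyl cyclase 3 (Adcy3). The cyclic AMP then opens the channel made of Cnga2, Cnga4 and Cngb1, and the calcium that enters opens the chloride channel Ano2. Of 33 transduction genes measured by footprints, 0 were called higher and 1 lower, and the median was 0.04. Intervals lay above 0 for 16 genes and below 0 for 9 among members that are counted better than most genes. The members held 6.99% of all footprints in the control and 8.03% in the KO, and 3.86% and 4.15% of RNA counts.

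At the core of the cascade the footprints of most components were somewhat higher in the KO. Gnal had 16431 footprints in the control and 25028 in the KO (0.49 [0.46, 0.52]), with an RNA ratio of 0.08. Cnga2, the main channel subunit, had 2577 and 3944 (0.49 [0.42, 0.57], RNA 0.19), and Cnga4, a modulatory subunit, had 4729 and 6632 (0.37, RNA 0.35). The third subunit went the other way, with a ratio of -0.21 for Cngb1 and an RNA ratio of 0.24. Adcy3 had 6447 and 7995 (0.19 [0.14, 0.24], RNA 0.30), and Ano2 had 3163 and 3450 (0.01 [-0.06, 0.08]). Omp, which shapes the recovery of the response, had 9663 and 14732 (0.49, RNA 0.33).

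The highest footprint ratio of the list was that of Slc12a2, the cotransporter NKCC1 that loads the neuron with chloride, which had 3581 footprints in the control and 6669 in the KO (0.78 [0.72, 0.84], RNA 0.15). Pde1c, a calcium-dependent phosphodiesterase that breaks down cyclic AMP in the cilium, had 2963 and 4821 (0.58, RNA 0.04). Snap25, a protein of vesicle fusion at the axon terminal, had 1320 and 2456 (0.78, RNA -0.08).

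The lowest ratio was that of Rgs11, a regulator of G protein signalling and the called member, with 143 footprints in the control and 74 in the KO (-1.07 [-1.50, -0.66]) beside an RNA ratio of -0.06. In Ngn1-GFP cells its footprint ratio was -1.24. Arrb2, the arrestin that desensitises receptors, had 560 and 418 (-0.54 [-0.73, -0.36], RNA 0.10). Camk4, a calcium-dependent kinase, had 116 and 79 (-0.67, RNA -0.30), and Atp2b4, a calcium pump, had 215 and 170 (-0.46, RNA -0.14).

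**Figure D3:**
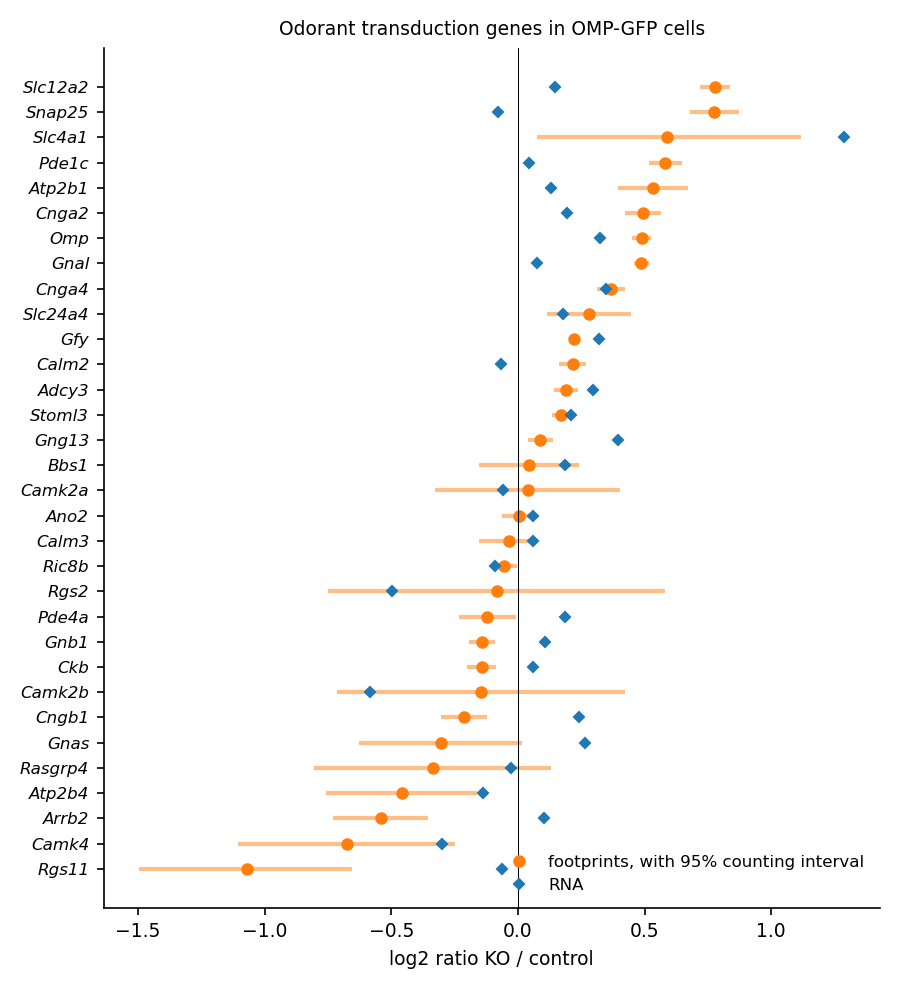
Rows are transduction genes measured by footprints, ordered by their footprint ratio, and the x axis is the log2 ratio KO over control. Orange points are footprints with their 95% counting intervals and blue diamonds are RNA. Footprint ratios run from -1.07 for Rgs11 to 0.78 for Slc12a2, and RNA ratios from -0.59 for Camk2b to 1.29 for Slc4a1.

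Odorant receptors need carriers of the RTP and REEP families and the folding machinery of the endoplasmic reticulum to reach the cilium. Of 32 measured transport genes 1 was called higher by footprints and 2 lower, with a median of -0.02. Rtp1, the main receptor carrier, had 5402 footprints in the control and 4324 in the KO (-0.44 [-0.50, -0.38], RNA -0.03), and Rtp2 had 3260 and 3394 (-0.06). The called genes were scarce REEP family members, which shape the tubules of the endoplasmic reticulum. Reep6 had 71 and 23 (-1.75 [-2.49, -1.05], RNA 0.33) and was also lower in Ngn1-GFP cells (-1.79), Reep3 had 190 and 96 (-1.10), and Reep4 had 18 and 61 (1.64).

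Chaperones and translocation factors of the endoplasmic reticulum moved by small amounts in both directions. Hspa5, the chaperone BiP, had 5488 footprints in the control and 7953 in the KO (0.42 [0.37, 0.47], RNA 0.01). Sec62 (0.48) and Srp72 (0.51), parts of the translocon and of the signal recognition particle, were also above 0, whereas Spcs1, a subunit of the signal peptidase, had 415 and 240 (-0.91, RNA 0.04). In the unfolded protein response list 1 of 40 genes was called higher and 2 lower. Atf5, the factor through which receptor expression signals that a choice has been made, had 3028 and 4848 (0.56 [0.49, 0.63], RNA 0.25). The stress-induced Atf3 had 103 and 25 (-2.16 [-2.86, -1.52], RNA -0.34), and Trib3, a pseudokinase induced by the same pathway, had 210 and 97 (-1.23).

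Over genes with at least 100 footprints, olfactory receptors had the higher r of footprint and RNA ratios given above, with more widely spread RNA ratios. The 1103 receptor names summed to 34392 footprints in the control and 38854 in the KO (0.06 [0.04, 0.08]) and to 146455 and 133534 RNA counts (0.13 [0.12, 0.14]). As a class the receptors were therefore nearly level. Of 715 measured by footprints 109 were called higher and 108 lower, and of 1014 measured by RNA 96 were higher and 96 lower, which are larger shares than the background in each assay. Receptors are thinly counted, and ratios of thinly counted genes scattered more throughout. Of 713 receptors measured in both assays, 22 were called higher in both and 23 lower, against 106 and 54 of all 11124 genes. Another 13 receptors were called in opposite directions, which was not counted over all genes. Receptors in near-identical copies can share reads, so their single values are uncertain.

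Fewer receptors were detected by footprints in the KO column, as were fewer genes of all kinds. Receptors with at least 1 footprint numbered 1006 in the control and 893 in the KO, beside 14503 and 13235 of all genes, and those with RNA 1069 and 1049. The effective number of receptors, taken from the entropy of their shares, was 583 and 528 by footprints and 715 and 684 by RNA. The 10 most counted receptors held 9.04% of receptor footprints in the control and 7.73% in the KO, and the most counted 1 held 1.88% and 1.18%. The receptor with the most footprints was Olfr1507 in the control, with 646, and Olfr1288 in the KO, with 459. Olfr1288 had 85 footprints in the control and RNA counts of 69 and 70, so its footprints and RNA parted.

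Olfr1507, also known as MOR28, is a widely studied class II receptor at 1 end of a cluster on chromosome 14. It had 646 footprints in the control and 155 in the KO (-2.18 [-2.44, -1.92]) and 1361 and 242 RNA counts (-2.23 [-2.44, -2.03]). In Ngn1-GFP cells its ratios were -2.06 and -2.03, values from separate columns. Its cluster of 36 receptors, from Olfr722 to Olfr1507, summed to 2146 footprints in the control and 1397 in the KO (-0.74 [-0.84, -0.64]) and to 7900 and 4686 RNA counts (-0.49). The genes of the cluster did not all go the same way: Olfr729 had 176 and 29 footprints (-2.72), and Olfr221 had 2 and 19 (3.13).

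Many receptors with lower RNA lay in a stretch of chromosome 2. The stretch from Olfr1179 to Olfr1264 was picked out after its values were seen, so its sums describe these columns and carry no test. Its 70 receptors lie from 88402009 to 90022064 and summed to 1657 footprints in the control and 1297 in the KO (-0.47 [-0.58, -0.37]) and to 11973 and 8116 RNA counts (-0.30). By RNA 22 of its 67 measured receptors were called lower and 3 higher, and 28 lay above 0. The whole cluster of 218 receptors that contains it was level (-0.01 by footprints, 0.01 by RNA). In Ngn1-GFP cells the median of the same stretch was -0.64 by footprints and -0.70 by RNA.

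Single receptors of this stretch had few or no counts in the KO columns. Olfr1180 had 52 footprints in the control and 0 in the KO, and 259 and 14 RNA counts (-3.95 [-4.84, -3.18]). Olfr1205 had 21 and 0 footprints and 127 and 7 RNA counts (-3.92), and Olfr1206 had 20 and 2 footprints and 374 and 52 RNA counts (-2.59). Further along, the 7 receptors from Olfr1277 to Olfr1283 (111269454 to 111374131), also picked out after the fact, summed to 459 and 48 RNA counts (-3.0 [-3.46, -2.57]), and 6 of 6 measured were called lower. Their median RNA ratio in Ngn1-GFP cells was -3.16. Olfr1280 had 48 and 0 footprints, but Olfr1277 had 33 and 39 footprints beside 98 and 5 RNA counts.

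**Figure D4:**
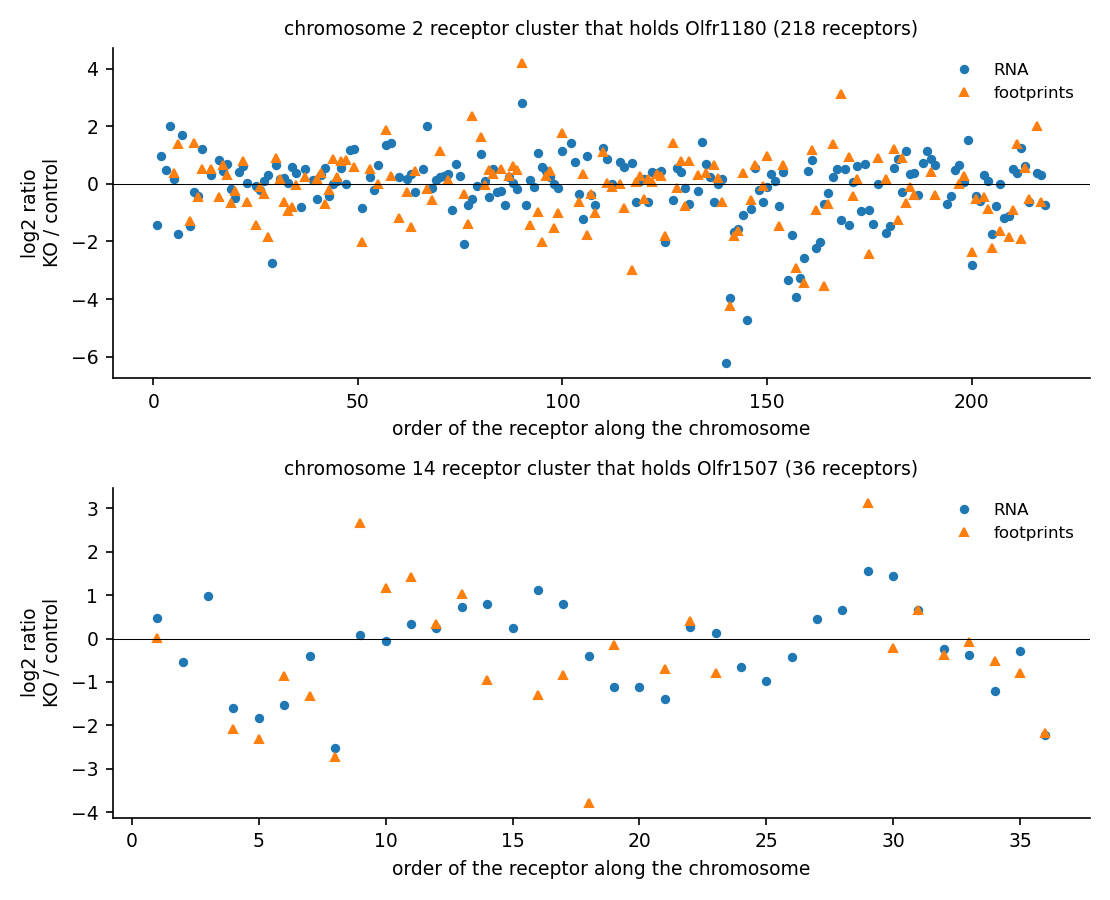
The x axis is the order of receptor genes along the chromosome and the y axis the log2 ratio KO over control, with circles for RNA and triangles for footprints. In the upper panel (218 receptors of chromosome 2) low values gather after about position 140, where Olfr1180 (position 141) lies, and in the lower panel (36 receptors of chromosome 14) the outermost gene, Olfr1507, and genes near Olfr729 are low in both assays.

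Among receptors on other chromosomes, the 81 receptors on chromosome 11 summed to 9293 RNA counts in the control and 10849 in the KO (0.48), with 20 called higher and 3 lower by RNA, while their footprints gave 0.12. Olfr30 on chromosome 11 had 44 and 107 footprints (1.16 [0.64, 1.70]) and 272 and 526 RNA counts (1.21), and Olfr330 had 23 and 71 footprints (1.51) and 81 and 187 RNA counts (1.47). Olfr370 on chromosome 8 had 78 and 258 footprints (1.61 [1.24, 1.99]) and 370 and 719 RNA counts (1.22). The class I receptors, which descend from fish-like receptors and lie from Olfr543 to Olfr691 on chromosome 7, were level as a group (-0.05 by footprints over 116 names).

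Receptors called in both assays of OMP-GFP cells mostly lay on the same side of 0 in Ngn1-GFP cells, where different libraries were counted. Of the 23 receptors called lower in both assays, 21 were measured by Ngn1-GFP footprints and 19 of those were below 0 (median -1.33), and 19 of 23 were below 0 by RNA (-1.78). Of the 22 called higher, 14 of 17 were above 0 by footprints (1.12) and 15 of 22 by RNA (0.60). Among all receptors in Ngn1-GFP cells, 646 of 1089 lay below 0 by RNA and 404 of 720 above 0 by footprints. Calls by a single assay gave less one-sided counts in places. Of those called by OMP-GFP RNA, 80 of 96 lower ones were below 0 by Ngn1-GFP RNA, but 51 of 96 higher ones were above 0. Of those called by OMP-GFP footprints, 58 of 98 lower ones were below 0 and 57 of 82 higher ones above 0 by Ngn1-GFP footprints. Over receptors with 100 to 1000 counts the r between the populations' RNA ratios was 0.46 (738 receptors), against -0.03 for 3753 other genes, and that between their footprint ratios 0.28 (229 receptors), against 0.03 for 5943 other genes, a description over genes that share libraries. Receptor RNA ratios spread more than those of other genes, as given above, and a wider spread can raise r. The other genes also include the sustentacular list, whose medians had opposite signs in OMP-GFP and Ngn1-GFP cells. What these differences add to the values of r was not tested. The sources used here do not say whether the same mice gave both populations.

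The 250 bases before the RefSeq start (GRCm38.p6) of 5 receptors that both assays called are shown because receptor promoters are known for homeodomain sites and for sites of the EBF factors. They were chosen after their values were seen. Capitals mark matches on either strand to TAATTA or TAATGA, cores that homeodomain proteins can bind, or to CCCNNGGG, the core of an EBF site. The first 3 receptors were lower and the last 2 higher in the KO. They lie at chr2:88412690-88412939 on the minus strand, chr2:88829507-88829756 and chr2:88864357-88864606 on the plus strand, and chr11:58455981-58456230 and chr11:58534826-58535075 on the minus strand.
Olfr1180: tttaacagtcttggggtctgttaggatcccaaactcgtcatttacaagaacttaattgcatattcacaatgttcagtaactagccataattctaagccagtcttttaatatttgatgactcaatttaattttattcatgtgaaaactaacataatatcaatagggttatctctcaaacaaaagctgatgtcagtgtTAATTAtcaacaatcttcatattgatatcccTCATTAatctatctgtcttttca
Olfr1205: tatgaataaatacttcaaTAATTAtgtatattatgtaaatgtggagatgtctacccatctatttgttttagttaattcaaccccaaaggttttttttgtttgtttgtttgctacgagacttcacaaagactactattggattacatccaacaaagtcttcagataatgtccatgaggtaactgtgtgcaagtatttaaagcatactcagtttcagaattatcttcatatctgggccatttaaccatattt
Olfr1206: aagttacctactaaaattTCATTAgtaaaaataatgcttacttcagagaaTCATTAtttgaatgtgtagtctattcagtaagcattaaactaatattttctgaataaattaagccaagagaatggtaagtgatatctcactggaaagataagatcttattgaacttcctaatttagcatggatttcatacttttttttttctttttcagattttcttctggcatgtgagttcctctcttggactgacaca
Olfr30: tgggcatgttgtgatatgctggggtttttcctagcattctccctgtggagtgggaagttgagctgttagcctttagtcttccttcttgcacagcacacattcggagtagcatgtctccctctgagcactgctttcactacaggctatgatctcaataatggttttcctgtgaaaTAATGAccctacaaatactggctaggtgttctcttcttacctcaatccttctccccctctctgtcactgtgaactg
Olfr330: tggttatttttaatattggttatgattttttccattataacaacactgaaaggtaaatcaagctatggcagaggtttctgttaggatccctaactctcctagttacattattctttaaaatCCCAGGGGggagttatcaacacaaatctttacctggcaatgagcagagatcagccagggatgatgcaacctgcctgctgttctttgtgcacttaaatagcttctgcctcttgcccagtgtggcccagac
TAATTA was in 18.1% of 944 receptor windows and in 4.84% of all 32851 windows of that length, and it was in 22.5% of 71 windows of receptors with lower RNA and 21.2% of 80 with higher RNA. TAATGA was in 25.3% of receptor windows, 8.59% of all windows, and 29.6% and 17.5% of the lower and higher sets. CCCNNGGG was rarer before receptors (2.75%) than before all genes (11.8%), with 2.82% and 2.5% in the sets. For 72.6% of receptors the annotated start is the start codon, so these windows can lie inside the transcribed leader and not at the promoter. A match is only a description of the letters.

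Transcription and chromatin factors linked to receptor choice had few called members. Of 45 measured by footprints 1 was called higher and 1 lower, with medians of -0.06 by footprints and -0.08 by RNA. By RNA 33 of 46 lay below 0, with 25 intervals below 0 and 7 above, against a background of 27.2% each. The background includes thinly counted genes, whose intervals are wider. Lhx2, the homeodomain factor at receptor enhancers, had 356 footprints in the control and 442 in the KO (0.19 [-0.01, 0.40]), and its partner Ldb1 had 438 and 339 (-0.49 [-0.70, -0.28]). Kdm1a, the demethylase LSD1 that permits the first choice, had 630 and 695 (0.02). The 4 Ebf genes had a median of -0.20 and the 4 Nfi genes of -0.44, each with 0 members above 0, against RNA medians of 0.04 and 0.04.

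Trace amine-associated receptors, a small family that detects amines, split. Of 12 measured genes 2 were called higher by footprints and 4 lower, and by RNA 3 were higher and 0 lower. Taar6 had 156 footprints in the control and 466 in the KO (1.46 [1.19, 1.73]) and 382 and 646 RNA counts (1.02). Taar9 had 62 and 13 footprints (-2.37) but 315 and 201 RNA counts (-0.39). Gucy1b2, a guanylate cyclase subunit that marks a small class of neurons sensing low oxygen, was lower in both assays. It had 197 and 46 footprints (-2.22 [-2.71, -1.75]) and 1024 and 157 RNA counts (-2.45 [-2.70, -2.20]), and its RNA ratio in Ngn1-GFP cells was -1.92. Its Ngn1-GFP footprint ratio was at most -3.72, since the KO column held no count and 3 counts stood in for it.

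Clustered protocadherins give each neuron a surface identity by which its own branches avoid each other. Their footprints had 49 of 58 members above 0 and a median of 0.38, against an RNA median of 0.11, while 1 member was called higher and 3 lower. All 12 measured Pcdha genes were above 0 (median 0.38, from 0.27 to 0.58) at an RNA median of -0.05, and all 22 Pcdhg genes were above 0 (median 0.43) at an RNA median of 0.16. The interval of every Pcdha and Pcdhg gene lay above 0. Genes of the alpha cluster share their last exons, as do those of the gamma cluster, so their counts are not independent and can amount to 1 value per cluster. The Pcdhb genes, which share no exons, had a median of 0.10 and a range from -2.89 to 1.69, with 9 of 22 below 0. In Ngn1-GFP cells the family's median was 0.52 by footprints and 0.30 by RNA.

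Other adhesion and guidance genes were close to level. Of 42 axon sorting genes 1 was called higher and 2 lower by footprints, and of 48 guidance genes 3 were higher and 4 lower. Kirrel2, an adhesion molecule whose level follows receptor activity, had 4805 footprints in the control and 6026 in the KO (0.21, RNA 0.27). Pcdh10, an activity-dependent protocadherin outside the clusters, had 930 and 815 (-0.31), with an RNA ratio of -0.38. Nrp1, the receptor for semaphorins that orders axons along the bulb, had 838 and 1123 (0.30 [0.17, 0.43], RNA -0.16), and Cntn1, an axonal adhesion protein, had 356 and 161 (-1.26 [-1.54, -0.99], RNA -0.36).

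Genes of immature neurons were slightly lower by footprints, with a median of -0.19 and 16 of 40 above 0, of which 1 was called higher and 5 lower. Gap43, the growth cone protein, was level at 1104 footprints in the control and 1292 in the KO (0.11 [-0.01, 0.22]). Dcx, a microtubule protein of migrating neurons, had 1584 and 1170 (-0.56), and Gng8, the G protein gamma subunit of immature neurons, had 183 and 97 (-1.04 [-1.41, -0.67]) while its RNA ratio was 0.46. Stmn4, a stathmin that destabilises microtubules, had 1758 and 3042 (0.67, RNA 0.54). The 4 defining markers of immature neurons thus gave footprint ratios from -1.04 to 0.67.

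Immediate early genes, which neurons switch on within minutes of activity or stress, were lower in both assays. By footprints 8 of 32 measured genes lay above 0, with 3 called higher and 10 lower and a median of -0.57. By RNA 0 of 43 were called higher and 9 lower, with a median of -0.33. Fos had 696 footprints in the control and 272 in the KO (-1.48 [-1.68, -1.27]) and 16041 and 8126 RNA counts (-0.72). Egr1 had 473 and 140 footprints (-1.88 [-2.16, -1.60]) and 23722 and 14976 RNA counts (-0.40). Both encode transcription factors that follow neuronal activity, and for both the footprint ratio lay below the RNA ratio.

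Further members showed the same direction with fewer counts. Junb, a partner of Fos, had 258 footprints in the control and 159 in the KO (-0.82, RNA -0.71), and Nr4a1, a nuclear receptor induced by activity, had 104 and 75 (-0.59, RNA -0.63). Zfp36, which binds AU-rich elements and promotes mRNA decay, had 47 and 6 (-3.09, RNA -0.16), and Egr4 had 38 and 0, at least 13.8-fold lower, with an RNA ratio of -1.23. Exceptions were Jun, with 1294 and 2281 (0.70 [0.60, 0.80], RNA 0.07), and the called higher genes Nr4a3 (2 and 19, RNA -1.06), Trib1 (14 and 74) and Gadd45g (4 and 35). In Ngn1-GFP cells the median of the list was -0.10 by footprints and -0.01 by RNA.

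The respiratory chain of mitochondria was lower by footprints but not by RNA. Of 69 nuclear genes for its subunits 12 lay above 0 by footprints, with a median of -0.31. Intervals lay below 0 for 49 and above 0 for 7, where the background below 0 was 26%. That background is no like-for-like measure, since well counted genes have narrower intervals. At least 100 footprints were counted for 67 of the 69, against 7755 of all 11160 genes. The RNA median was 0.07 and the median of footprints relative to RNA -0.37. At the 2-fold threshold 0 were called higher and 1 lower, so the shift was small and shared over many genes. Under the other scalings the footprint median ran from -0.39 to -0.29. In Ngn1-GFP cells it was 0.01.

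All 5 complexes had medians below 0. Complex I, which takes electrons from NADH, had a median of -0.25 over 35 genes, and complex IV, the cytochrome oxidase, -0.41 over 9 genes with 0 above 0. The ATP synthase had -0.43 over 12 genes. Atp5b, its catalytic subunit, had 7496 footprints in the control and 6228 in the KO (-0.39 [-0.44, -0.34]) and 24659 and 21098 RNA counts (0.03). Ndufs3, a complex I core subunit, was the called gene, with 161 and 49 footprints (-1.84 [-2.33, -1.37], RNA -0.09), and it was also lower in Ngn1-GFP cells (-1.35). Exceptions were Ndufb10 (0.64), Uqcrq (0.56) and Atp5o (0.54), each with an RNA ratio between 0.10 and 0.12.

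The genes encoded by mitochondrial DNA, which are translated by mitochondrial ribosomes, were lower as well. All 7 measured lay below 0 with a median of -0.69, while their RNA median was 0.18. The largest difference was that of mt-Co1, a catalytic subunit of complex IV, with 3333 footprints in the control and 1327 in the KO (-1.45 [-1.54, -1.36]) and 164669 and 156497 RNA counts (0.19). The complex I subunits mt-Nd5 and mt-Nd4 had 2709 and 1547 (-0.93) and 643 and 358 (-0.96). In Ngn1-GFP cells the footprint median of the 7 was 0.02. Proteins of the mitochondrial ribosome and of mitochondrial import had a median of -0.07 over 67 genes.

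**Figure D5:**
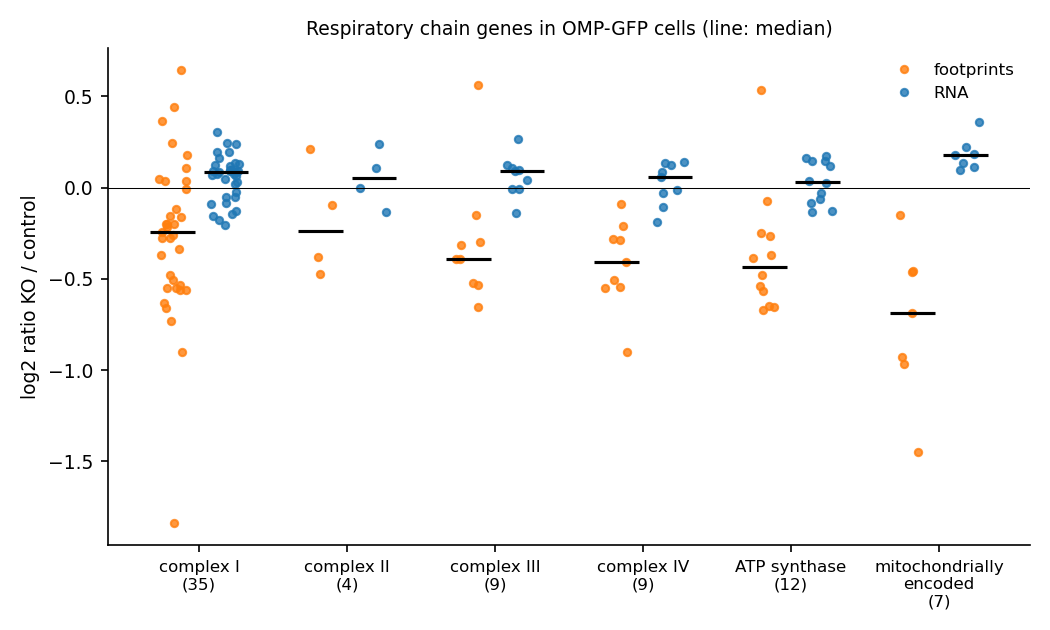
Points are genes of each respiratory complex and of mitochondrial DNA, with numbers of genes in parentheses, and the y axis is the log2 ratio KO over control. Footprints (orange) lie mostly below 0, with medians (black lines) from -0.24 to -0.69, and RNA (blue) lies around or above 0, with medians from 0.03 to 0.18.

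Cytosolic ribosomal proteins were also lower by footprints, with a median of -0.47 over 41 measured genes, 11 of them above 0, and an RNA median of 0.06. The 83 genes of this list had few footprints for their RNA: 9305 against 271194 counts in the control, with 25 genes at 0. These genes have many near-identical pseudogene copies, so their counts are uncertain. Rplp2, of the ribosomal stalk, had 177 footprints in the control and 75 in the KO (-1.36), Rpl14 had 169 and 412 (1.17), and Rps15a had 23 and 0. Translation factors were level, with a median of 0.03 over 52 genes, 2 called higher and 4 lower.

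Among the translation factors the cap-binding step held called genes of both directions. Eif4e, the cap-binding protein, had 22 footprints in the control and 65 in the KO (1.44 [0.73, 2.21], RNA -0.24), and Eif4ebp1, its repressor, had 24 and 2 (-3.71 [-6.83, -1.69], RNA 0.19). Both rest on few footprints. Eif1b, a start-site selection factor, had 227 and 611 (1.31 [1.09, 1.53], RNA -0.11). In the list of mRNA silencing genes 1 of 54 was called higher and 4 lower. Ago2, the slicer of small RNA-guided silencing, had 166 and 82 (-1.14 [-1.54, -0.75], RNA 0.21), and Pan3, part of a deadenylase, had 85 and 24 (-1.94).

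Clustered histone genes parted by type. Of 43 measured 3 were called higher and 6 lower, with a median of -0.36 and an RNA median of -0.02. The 5 linker H1 genes had a median of 1.13 with 4 above 0, whereas the 10 H4 genes had -0.58 with 1 above 0. Histone genes are near-identical copies whose mRNAs can share reads, and most lack a poly(A) tail, so their values are uncertain.

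Where footprints and RNA parted most, counts were low on 1 side. The highest ratios of footprints to RNA by their interval were those of Gfra1, Olfr1277, Olfr243, Olfr611, Olfr901, Rel, Ticrr and Zfp322a. Zfp322a, a zinc-finger gene, had 22 footprints in the control and 158 in the KO (2.72), with 916 and 556 RNA counts (-0.46). The lowest were those of Acta1, Bri3, Coa5, Col6a1, Hikeshi, Neurl1a, Pdxp and Samd10. Hikeshi, an importer of heat shock proteins into the nucleus, had 59 and 0 footprints beside 378 and 436 RNA counts, and Bri3, a small membrane protein, had 125 and 12 footprints beside 252 and 232.

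Footprint ratios also followed the length of the coding sequence. Over genes with at least 100 footprints, receptors left out, the median was -0.22 for the 114 genes with coding lengths up to 300 bases, -0.05 for the 1917 from 600 to 1200 and 0.09 for the 545 above 4500. RNA medians ran the other way, from 0.03 to -0.08, so footprints relative to RNA went from -0.28 to 0.16. In Ngn1-GFP cells the footprint median was -0.06 for the shortest and 0.37 for the longest genes. The nuclear respiratory chain genes had a median coding length of 446 bases and a footprint median of -0.31, and the 610 genes from 300 to 600 bases had -0.07. The Pcdhg genes had a median length of 2798 bases and a footprint median of 0.43, and the 1135 genes from 2700 to 4500 bases had 0.08.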

How the data were processed

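Ribosome footprints and input RNA were measured in sorted cells, and the comparison used the 2 OMP-GFP groups of the series. Libraries were made with the SMARTer Stranded Total RNA-Seq v2 Pico kit, per the labels' protocols. FastQC, cutadapt, STAR and mm10 are named, without versions, in the submitters' processing notes. The deposited table gives counts over coding sequences, per the file headers, with footprint RPKM and RNA TPM as the authors computed them from the same counts. Per the labels' titles the libraries number 2 per group, but the table holds 1 column per group and assay, and the sources used here do not say how they were combined. The other 11 value columns of the table were not used.

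Counts were scaled by TMM over the 4 columns of an assay (edgeR 4.0.16, R 4.3.3) on genes that passed filterByExpr (minimum count 10, minimum total 15). Log2 ratios and exact conditional binomial 95% intervals were computed in Python 3.11.15 (numpy 2.4.6, pandas 2.3.3, scipy 1.17.1), and plots with matplotlib 3.10.9. The interval of footprints relative to RNA is a normal approximation from the counting variance. Genes needed 20 counts in the pair. The calculation was tested on simulated data. With 1 column per group no p-value was computed. Chromosome positions were taken from the RefSeq table of GRCm38.p6, which held 21322 (94.5%) of the symbols, and windows before gene starts from its promoter table. The alternatives tried were library size alone, the size factors of DESeq2 1.42.0, TMM over the pair, TMM without the receptor, mitochondrial, ribosomal, support cell, gland, vessel and immune genes, other minimum counts, 1 count for 0, a 99% interval, and the authors' RPKM and TPM. The last used the same counts, with 1 scaling factor per assay derived from the authors' values. For footprints it called the same number of genes as library size alone, 1783, so it adds no separate check there.

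Members and gene lists were chosen with earlier results of these data known. Named genes are Mex3a and its family, the members of the transduction, receptor transport and immediate early lists, up to 3 members in each direction of every other list by the interval bound farthest from 0, the 8 genes in each direction by that bound over all genes, and the 10 in each direction by footprint ratio among genes with at least 1000 footprints. Ptprc, Trp63, Ascl3, Gap43, Dcx, Lhx2, Ldb1, Kdm1a, Kirrel2, Nrp1, Atp5b, Ago2 and the receptors and receptor stretches were named in addition, after their values were seen. Predicted genes and pseudogenes entered the counts without being named, and some items are not reported here.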

Additional observations from a re-analysis of the deposited data

How the results depend on the processing

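No paired analysis was possible because the table has 1 column per group, and for the same reason no library could be left out. With at least 50 counts in the pair, 1045 genes were called by footprints (485 higher, 560 lower), 708 by RNA (392, 316) and 1107 by footprints relative to RNA (500, 607). With at least 100 counts, these were 552 (281, 271), 384 (207, 177) and 591 (282, 309), since fewer genes were measured. With 1 count, 1474 genes were called lower by footprints. DESeq2 size factors called 1743 genes by footprints, library size alone 1783 and TMM over the pair 1749, against 1748. No named gene that was called changed its direction under any alternative run. Called genes are at least 2-fold apart and the scalings moved ratios by much less, so no scaling could turn a direction. Of the ratios of named genes, 14 lost their call with the 99% interval. With library size alone 5 lost and 8 gained a call, and with the authors' values 6 lost and 7 gained. DESeq2 size factors gave 1 and 5. List medians at least 0.1 from 0 changed sign with the minimum count alone, while medians nearer 0 could cross it with the scaling. Across the scalings the footprint median ran from -0.03 to 0.07 for transduction, -0.05 to 0.05 for mature identity, -0.01 to 0.09 for receptors and -0.02 to 0.08 for guidance genes. At a minimum of 100 counts the footprint median became -0.0092 for cell division, -0.33 for basal cell and keratin genes and -0.11 for microvillar and tuft cell genes. At that minimum the last list gave 0.29 by RNA and -0.31 by footprints relative to RNA, which was -0.080 at 50 counts. At 50 counts the gland list gave -0.00252 by footprints relative to RNA and the p53 and cell death list -0.024 by footprints. With 1 count the immune list gave -0.27 by footprints relative to RNA. At 50 and at 100 counts the Mex3 family median by footprints was 1.65, from Mex3c alone, and the vomeronasal receptor median by RNA was 0.19, from 1 gene. The respiratory chain, mitochondrially encoded, ribosomal protein, immediate early, sustentacular and gland footprint medians kept their sign under every scaling run. A scaling shifts every gene of an assay by the same amount, and these shifts were smaller than the distance of the medians from 0. The kept sign is therefore no test of these lists.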

Other observations

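Ciliary transport and transition zone genes, which build the cilium that carries the receptors, had a footprint median of -0.15 over 66 genes, with 1 called higher and 5 lower, and an RNA median of -0.05. Ift74, a subunit of the intraflagellar transport train, had 1048 footprints in the control and 1678 in the KO (0.56, RNA -0.08), and Ttc21b, a retrograde transport subunit, had 107 and 50 (-1.22, RNA -0.30). Presynaptic genes had a median of 0.04 over 50 genes with 3 called higher and 3 lower. Vamp1, a vesicle fusion protein, had 36 and 107 (1.45), and Cacna1a, a presynaptic calcium channel, had 49 and 7 (-2.93, RNA -0.68).

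Proteasome subunits had a median of 0.08 over 38 genes, with 2 called higher and 1 lower. Genes of cholesterol synthesis had 0.03 over 34 genes, with 0 called higher and 1 lower, and Sqle, which oxidises squalene, had 405 footprints in the control and 788 in the KO (0.84, RNA -0.02). The called gene was Insig1, a sterol sensor that retains SREBP, with 27 and 1 (-4.87 [-10.23, -2.27], RNA -0.35). Tubulin genes had a footprint median of -0.16 with 2 of 11 above 0, beside an RNA median of 0.12. Tuba1a, a neuronal alpha tubulin, had 2354 and 2041 (-0.33, RNA 0.15), and Tubb3, a neuron-specific beta tubulin, had 4183 and 3983 (-0.19, RNA 0.02). Cell division genes had a median of 0.24 over 32 genes, with 5 called higher and 4 lower against backgrounds of 7.12% and 8.54%. Neuronal RNA-binding proteins had -0.07 over 41 genes and zonal genes of the epithelium -0.11 over 24.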
